A study of Rattus norvegicus with 4 samples.

Results

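The complement genes examined here encode components of a plasma and tissue protein cascade, 2 of its receptors and an inhibitor, measured in rat fat from the retroperitoneal depot, a white and visceral one. The 9 members named were C1qa, C1qb, C1qc, C2, C3, Cfb, C3ar1, C5ar1 and Serping1, and each was taken where an array row carried its symbol alone. That rule gave a row of its own to 7 of the 9, out of 14506 genes with such a row. C2 and Cfb, which are direct neighbours in the RefSeq gene table, are listed together on 1 row, so neither has a value here. The measured members are C1qa (NCBI gene 298566), C1qb (29687), C1qc (362634), C3 (24232), C3ar1 (84007), C5ar1 (113959) and Serping1 (295703).

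The animals were 4-month-old male rats of the WNIN/Ob strain, which has a lean and an obese phenotype. Both groups received no treatment, ate a stock diet and comprised 2 rats each, and each rat gave 1 total RNA sample on 1 Affymetrix Rat Gene ST array. The labels give the phenotype of each rat but not its genotype, and lean and obese rats of the same strain are the only groups. The deposited intensities were analysed as log2 values, and differences are obese minus lean on that scale.

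Complement can be set off by several routes. In the classical route C1q, a bundle of trimers of A, B and C chains, binds immune complexes or dying cells and activates the proteases C1r and C1s, which cleave C4 and C2. In the alternative route factor B, factor D and properdin amplify the cleavage of C3. Cleavage of C3 and C5 releases the small peptides C3a and C5a, which act on myeloid cells through the receptors encoded by C3ar1 and C5ar1. In adipose tissue, C1q is mainly a macrophage product, whereas adipocytes secrete factor D, also called adipsin.

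The results turn on a receptor gene that rose, C3ar1, and on C1q chain genes that did not pass the test, so the 250 bases before the start site that RefSeq gives are shown for C3ar1, C1qa and C1qb. The same stretch is shown for Itgam, another gene of the pathway that rose. The letters come from RefSeq on build GRCr8, where entries were matched for 4 of the 7 measured members (C1qa, C1qb, C3 and C3ar1). Each stretch reads 5′ to 3′ on the gene's own strand and ends at the base before the start site. Capitals mark TGANTCA, a core bound by AP-1 factors, and GAGGAA, a core bound by the myeloid factor PU.1, each searched on both strands (TTCCTC is GAGGAA on the other strand).
C3ar1, chr4:157756531-157756780, minus strand: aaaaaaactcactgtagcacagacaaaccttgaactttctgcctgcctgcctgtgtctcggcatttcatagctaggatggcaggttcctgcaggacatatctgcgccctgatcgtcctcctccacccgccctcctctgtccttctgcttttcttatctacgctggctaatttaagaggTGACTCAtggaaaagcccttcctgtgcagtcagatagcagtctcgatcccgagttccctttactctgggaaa
Itgam, chr1:192089342-192089591, plus strand: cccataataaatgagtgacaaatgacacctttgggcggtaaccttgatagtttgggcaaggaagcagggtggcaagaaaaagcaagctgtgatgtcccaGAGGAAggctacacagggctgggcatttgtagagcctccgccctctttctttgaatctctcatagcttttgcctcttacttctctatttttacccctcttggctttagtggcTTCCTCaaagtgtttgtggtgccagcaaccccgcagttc
C1qa, chr5:154419934-154420183, minus strand: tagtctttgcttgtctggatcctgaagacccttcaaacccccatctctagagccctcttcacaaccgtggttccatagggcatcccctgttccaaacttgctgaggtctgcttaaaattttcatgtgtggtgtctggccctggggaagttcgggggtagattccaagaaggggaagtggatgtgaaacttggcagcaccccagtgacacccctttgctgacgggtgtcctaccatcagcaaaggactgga
C1qb, chr5:154407828-154408077, minus strand: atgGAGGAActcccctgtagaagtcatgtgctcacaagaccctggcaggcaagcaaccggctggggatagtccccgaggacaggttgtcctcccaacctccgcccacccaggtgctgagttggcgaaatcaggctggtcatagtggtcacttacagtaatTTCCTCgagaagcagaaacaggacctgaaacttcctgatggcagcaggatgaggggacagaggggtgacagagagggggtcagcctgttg
The C3ar1 stretch held TGACTCA once, beginning 72 bases before the start site, and no GAGGAA. The Itgam stretch held GAGGAA once on each strand, beginning 151 and 39 bases before the start. C1qb also held GAGGAA once on each strand, beginning 247 and 90 bases before the start, and C1qa held neither core. Over 33469 RefSeq promoters of the same length, 6.34% held TGANTCA and 23.3% held GAGGAA. The cores were chosen after these stretches had been read. Also searched on both strands were TTGCNNAA, a C/EBP core held by 9.22% of promoters, GGGANTTCC, an NF-kB core held by 1.43%, and TATAAA, held by 12.9%. Among the 4 stretches, C1qb held the NF-kB core once, overlapping its first GAGGAA, Itgam held the C/EBP core once, and TATAAA was in none. A match describes the letters only.

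The lean arrays stood apart from each other and from the obese arrays. The summed signal of 9 skeletal muscle markers was 14.98 (log2) in lean rat 1. In the other 3 rats it lay between 8.88 and 9.40, so values without lean rat 1 are given below where they bear on a call. All 8 adipocyte markers (including Adipoq, Plin1 and Fabp4) exceeded on every array the level below which 95% of 187 olfactory and vomeronasal receptor genes lay, which stand in for genes near background. No marker was at 0 on any array. Lean rat 2 had the narrowest spread of log2 values (interquartile range 2.24, against 2.63 to 2.77) and the highest median intensity (44.5, against 39.9 to 41.0). Across genes, Pearson's r was 0.937 between the lean arrays, 0.984 between the obese arrays and 0.930 to 0.943 for lean with obese arrays, as a description over genes, which are not replicates. Leaving out a rat leaves 1 array in its group, whose spread is then assumed to be that of the other group, so a call kept or gained that way is weak support. The number of arrays, 2 a group, limits precision.

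Of the 7 measured members, 1 rose in the obese rats, none fell and 6 did not pass limma's test at an adjusted p of 0.05. Over all 14506 genes, 0.841% passed the same test, 0.772% by rising and 0.0689% by falling. In bulk tissue, fewer cells of a type and less RNA per cell cannot be told apart. At an unadjusted p of 0.05, where 9.93% of all genes were higher and 5.33% lower, C3ar1 was again the only member. The obese pair was wholly above the lean pair for 3 members (C1qc, C3ar1 and C5ar1) and wholly below it for C3, while C1qa, C1qb and Serping1 overlapped. Among all genes these shares were 26.4% above and 21.3% below, so a lack of overlap alone is common on these arrays. The members' median difference was 0.38, against 0.00047 for all genes tested. Without the lowest 25% of genes, the median over genes was 0.11. With quantile normalization, C1qa, C1qb and C1qc were at -0.0091, 0.21 and 0.068, and C5ar1 was at 0.27. C3 and Serping1 were then at -0.51 and -0.42 and C3ar1 at 1.44, so the members' median depends on the normalization. A shift of the members as a group was not tested. The smallest two-sided p of an exact permutation test between 2 and 2 rats is 0.333, so calls here depend on limma's pooling of the spread across genes. All 7 members exceeded the near-background level above on all 4 arrays.

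**Figure D1:**
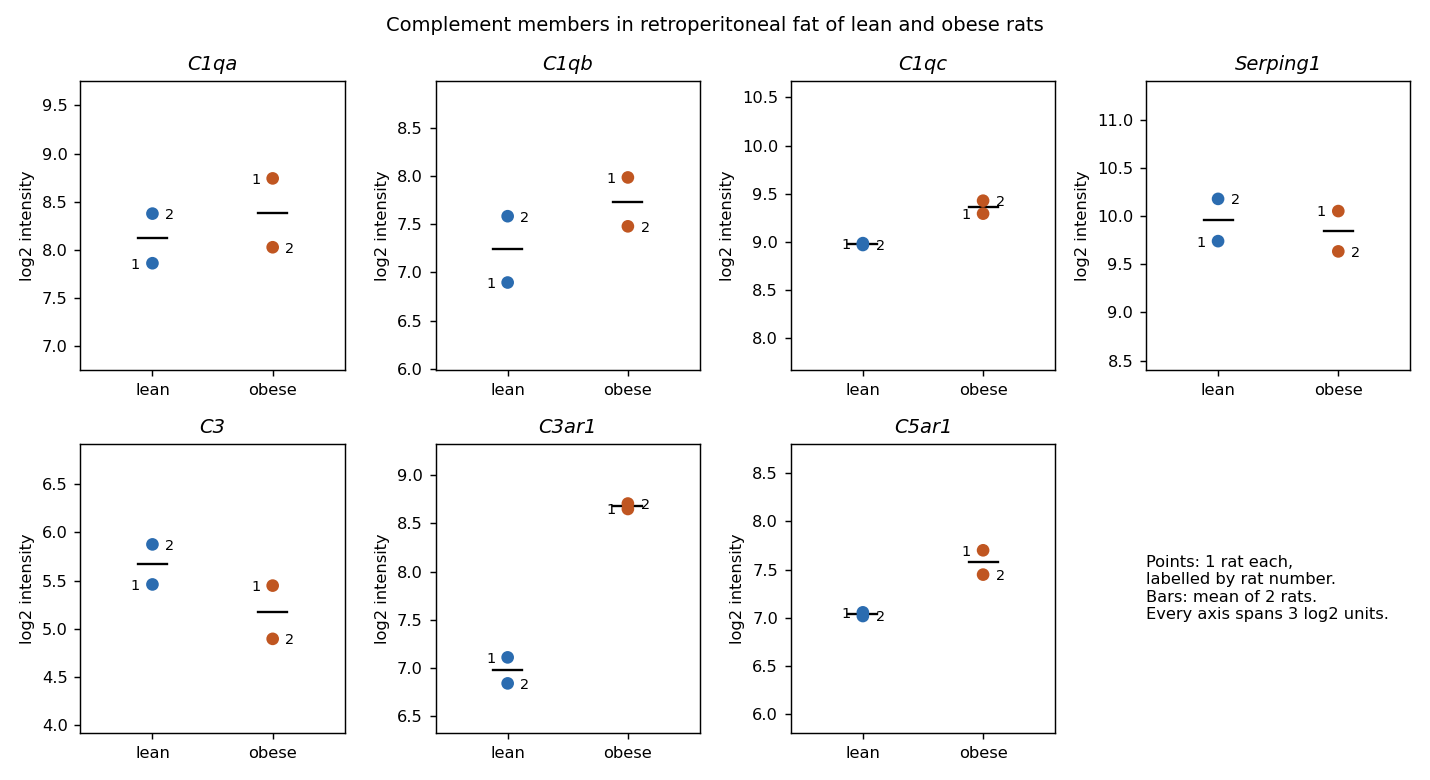
Log2 intensity of the 7 measured members in each rat, with 1 point per rat labelled by its number and a bar at the mean of the 2 rats; every panel spans the same 3 log2 units. The obese points for C3ar1 lie at 8.65 and 8.71, above the lean points at 7.11 and 6.84, whereas those of C1qa, C1qb and Serping1 overlap between the groups.

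C3ar1 encodes the G protein-coupled receptor for C3a, found mainly on myeloid cells. Its log2 intensity was 7.11 and 6.84 in lean rats 1 and 2, against 8.65 and 8.71 in obese rats 1 and 2. The groups were separated by more than the spread within either, and the obese rats differed from each other by only 0.057. The difference was 1.70 ± 0.29 (SE, n = 2 per group; 95% interval 1.04 to 2.36), or 3.25-fold, with a limma adjusted p of 0.045. The difference ranged from 1.44 to 1.84 under 13 other settings. A rat-number block, other variance models, a filter on dim genes and other row choices left it at 1.70. Those settings altered only its SE and adjusted p, so they do not bear on its size. The call was kept in 6 of the 13 settings and lost in 7. It was lost with quantile normalization (1.44, adjusted p = 0.084), with arrays centred on their medians (1.63, 0.051), with 16 added before the log (1.58, 0.057), without the lowest 25% of genes (0.052), over all rows of the table (0.066), without obese rat 1 (1.73, 0.054) and without obese rat 2 (1.67, 0.055). Without lean rat 1, the array with muscle signal, C3ar1 had a difference of 1.84 (adjusted p = 0.030), and without lean rat 2 the value was 1.57 and still called.

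**Figure D2:**
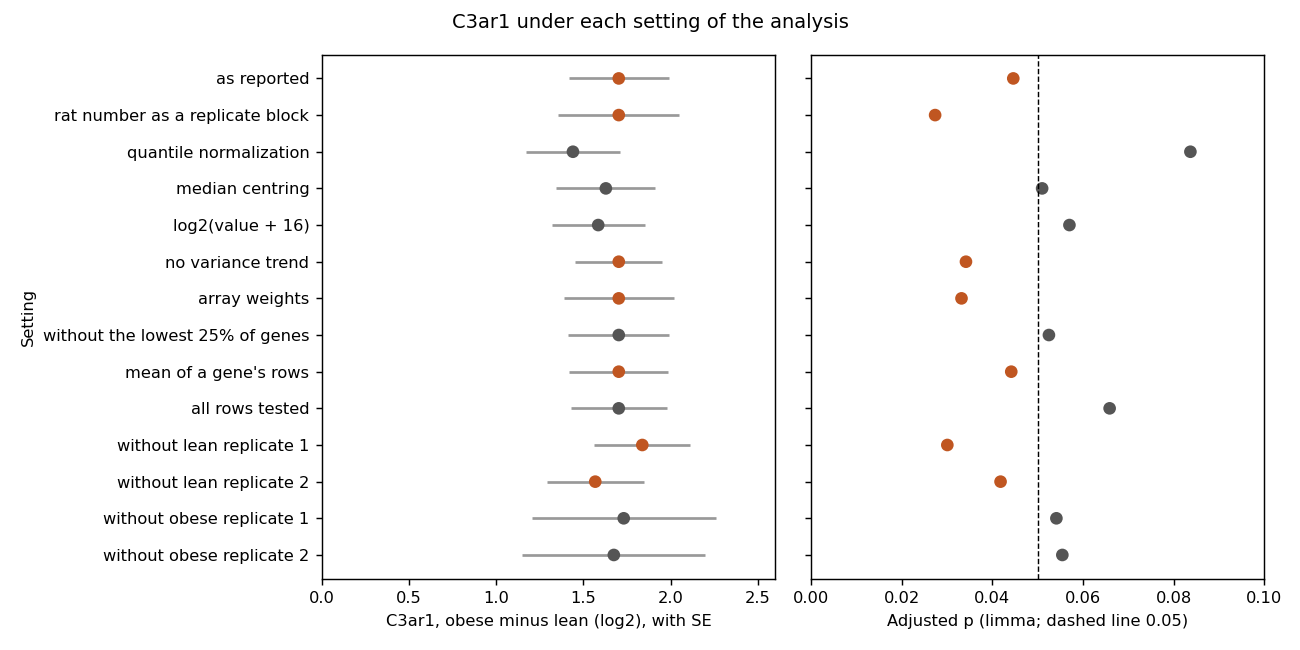
Difference of C3ar1 between obese and lean rats on the log2 scale with its SE (left) and limma's adjusted p with the threshold as a dashed line (right), for the reported setting and 13 others; orange points pass the threshold. The difference lies between 1.44 and 1.84, and the adjusted p between 0.027 and 0.084, on both sides of 0.05. Other settings at 1.70 alter only the SE and the adjusted p.

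C5ar1 encodes the main receptor for C5a on neutrophils and macrophages. It was at 7.06 and 7.02 in lean rats 1 and 2 and at 7.70 and 7.45 in obese rats 1 and 2. Both obese rats were above both lean rats, but the difference of 0.54 ± 0.28 (95% interval -0.10 to 1.17) had a limma adjusted p of 0.395. The interval of C5ar1 thus covers values from slightly below 0 to more than a doubling on the linear scale. C5ar2, which encodes the second C5a receptor, lies close to C5ar1 in the genome, with 1 other gene between them in the RefSeq table. It was at 6.06 and 6.25 in the lean rats and 6.85 and 6.57 in the obese rats, a difference of 0.56 ± 0.26 (adjusted p = 0.358). C3ar1 exceeded C5ar1 in its difference by 1.17, a gap between genes that was not tested.

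The 3 C1q chain genes are direct neighbours of one another in the RefSeq table, and their products assemble into a single protein. C1qa, the A chain gene, was at 7.86 and 8.38 in lean rats 1 and 2 and at 8.74 and 8.03 in obese rats 1 and 2. Its groups overlapped, since obese rat 2 was below lean rat 2. The difference of 0.27 ± 0.36 (95% interval -0.57 to 1.10, limma adjusted p = 0.768) turned to -0.0091 with quantile normalization and to -0.09 without obese rat 1. C1qb, the B chain gene, was at 6.89 and 7.58 in the lean rats and at 7.98 and 7.48 in the obese rats, with obese rat 2 again below lean rat 2. Its difference was 0.49 ± 0.35 (95% interval -0.31 to 1.29, limma adjusted p = 0.533), and it was 0.21 with quantile normalization and 0.15 to 0.84 with a rat left out. C1qc, the C chain gene, was at 8.99 and 8.97 in the lean rats and at 9.29 and 9.43 in the obese rats, so its groups did not overlap. The difference of C1qc was 0.38 ± 0.30 (95% interval -0.30 to 1.07, limma adjusted p = 0.576), and it shrank to 0.068 with quantile normalization. The upper bounds of the 3 intervals, 1.07 to 1.29, leave room for about a doubling of C1q transcripts on the linear scale, so no difference was detectable at this number of arrays rather than shown to be absent.

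Serping1 encodes the C1 inhibitor, a serpin that inactivates C1r, C1s and the lectin-route proteases. It was at 9.74 and 10.18 in lean rats 1 and 2 and at 10.05 and 9.63 in obese rats 1 and 2. The groups interleaved, with the highest value in lean rat 2 and the lowest in obese rat 2. The difference of -0.12 ± 0.33 (95% interval -0.89 to 0.66, limma adjusted p = 0.901) was above 0 without lean rat 2 (0.10) and without obese rat 2 (0.093).

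C3 encodes the central component on which all routes converge. It was at 5.46 and 5.88 in lean rats 1 and 2 and at 5.45 and 4.90 in obese rats 1 and 2. Both obese rats were below both lean rats, but obese rat 1 and lean rat 1 were nearly equal. The difference was -0.50 ± 0.28 (95% interval -1.15 to 0.16, limma adjusted p = 0.442), and -0.77 to -0.22 with a rat left out. The near-background level was 4.68 and 5.24 on the arrays of lean rats 1 and 2 and 4.49 and 4.55 on those of obese rats 1 and 2. The C3 row was therefore above it on every array by a small margin, least in obese rat 2.

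The members differed in how far rats of the same phenotype lay apart. For C1qa, C1qb, C3 and Serping1, lean rat 2 exceeded lean rat 1 by 0.51, 0.69, 0.42 and 0.44, respectively. For the same 4 genes obese rat 2 was below obese rat 1, by values of -0.71, -0.51, -0.55 and -0.42. Over all genes tested, the median absolute gap was 0.36 between the lean rats and 0.21 between the obese rats. For C1qc the gap was -0.02 between the lean and 0.13 between the obese rats, and for C3ar1 it was -0.27 and 0.057. After each gene's own mean was subtracted, C1qa and C1qb lay closest of all 21 pairs of members, at a root mean square distance of 0.15 over the 4 arrays, and C3 and C3ar1 lay farthest apart, at 1.15. C1qc was at 0.36 from C1qa and 0.34 from C1qb, and nearer to C5ar1 (0.16). These distances describe 4 arrays and carry no test.

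**Figure D3:**
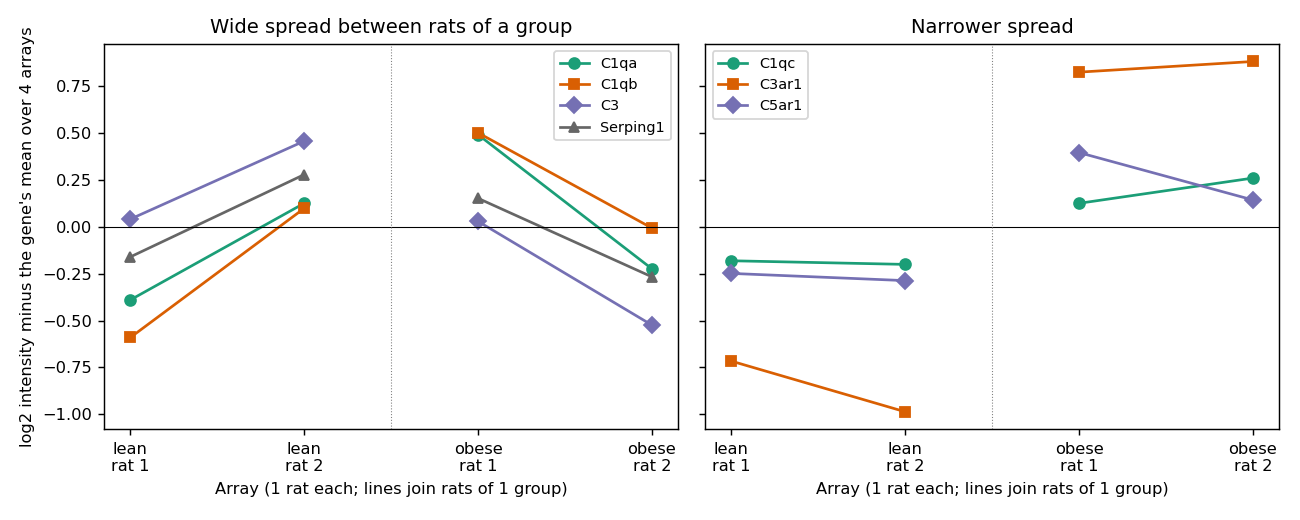
Log2 intensity of each measured member minus its own mean over the 4 arrays, by rat, with lines joining the rats of 1 group. C1qa, C1qb, C3 and Serping1 (left) are higher in lean rat 2 than in lean rat 1 and higher in obese rat 1 than in obese rat 2, by 0.42 to 0.71, whereas C3ar1 (right) separates the groups.

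The genes whose values were most like those of C3ar1, by the same distance over the 4 arrays, were Ndc80 (0.042), a kinetochore gene, Btk (0.081), a tyrosine kinase gene of B and myeloid cells, and Serpinb8 (0.082), a serpin gene. Ndc80 was at 4.61 and 4.30 in the lean and 6.08 and 6.25 in the obese rats, and both lean values were below the near-background level of their arrays. Btk (4.37) and Serpinb8 (4.63) were below it in lean rat 2, so the sizes of these differences are uncertain. Their differences were 1.71, 1.81 and 1.58, beside 1.70 for C3ar1. In all, 970 genes lay within 0.5 of C3ar1, so the likeness is not specific to the genes named.

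The rest of the pathway was described from a list of 44 other complement genes grouped by role, of which 37 had a row of their own. C4a and C4b share a row, and the rest of those without a row, such as Fcn1, C5, Itgax and Cd59, were not analysed here. Of the 37, 2 rose, none fell and 35 did not pass, with a median difference of -0.10. The obese pair was wholly above the lean pair for 8 of them and wholly below it for 10. These counts stand beside 0.841% called, 26.4% wholly above and 21.3% wholly below among all genes, and the counts without overlap are near those shares. Without lean rat 1, the array with muscle signal, 5 of the 37 were called, beside 1081 of all 14506 genes, so calls gained there were common. Of the 5, Cfd, C9 and the inhibitor gene C4bpb (-0.97, adjusted p = 0.049; 0.21 without lean rat 2) were lower; C9 and C4bpb were at or below the near-background level on every array. Of the 37, 23 exceeded the near-background level on all arrays, 3 on some and 11 on none.

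The genes that rose were Itgam and Itgb2, which encode the alpha and beta chains of complement receptor 3, the integrin that binds the C3 fragment iC3b and also serves in leukocyte adhesion. Itgam was at 5.92 and 6.17 in lean rats 1 and 2 and at 8.63 and 8.05 in obese rats 1 and 2, a difference of 2.30 ± 0.31 (limma adjusted p = 0.025) or 4.92-fold. Itgb2, whose product also pairs with other alpha chains, was at 6.66 and 7.58 in the lean and 10.87 and 10.16 in the obese rats, a difference of 3.39 ± 0.41 (limma adjusted p = 0.018) or 10.5-fold. The groups were far apart for both genes. With quantile normalization the adjusted p was 0.057 for Itgam (2.07) and 0.050 for Itgb2 (3.10), neither past the threshold. Of 7 measured receptors and binding proteins, the other 5 did not pass. C1qbp, which encodes a mitochondrial protein that can bind C1q heads, was at 7.04 and 6.99 in the lean and 7.98 and 8.94 in the obese rats, a difference of 1.45 (adjusted p = 0.138), which was 1.92 without obese rat 1 (adjusted p = 0.021) but 0.97 without obese rat 2 (adjusted p = 0.613). Cr2, the receptor for C3d on B cells, was the lowest of the group at -0.33 and was below the near-background level on all arrays.

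Among the genes that start the classical and lectin routes, 9 were measured and none passed. C1s, the C1 protease gene with the highest difference of this group, was at 7.58 and 7.79 in the lean and 8.03 and 8.38 in the obese rats, a difference of 0.52 (adjusted p = 0.446). C1r, which encodes its partner protease, was at -0.10. Colec10, a collectin gene, was the lowest at -0.66 (unadjusted p = 0.022, adjusted p = 0.256), but it exceeded the near-background level on only 1 array.

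Neither of the alternative-route genes measured passed, and their differences had opposite signs. Cfp, the gene of properdin, which stabilises the C3 convertase and is made by myeloid cells, was at 7.28 and 7.47 in lean rats 1 and 2 and at 9.20 and 8.33 in obese rats 1 and 2. Its groups did not overlap, and the difference of 1.39 ± 0.36 had an adjusted p of 0.143, which was 0.031 without obese rat 2 (1.83) but 0.765 without obese rat 1 (0.96). Cfd, the adipsin gene, was at 8.40 and 9.90 in lean rats 1 and 2 and at 8.47 and 8.17 in obese rats 1 and 2. A single lean rat was thus high for Cfd, and lean rat 1 lay among the obese rats. The difference of -0.83 ± 0.48 did not pass (adjusted p = 0.453), was -0.07 without lean rat 2 and -1.58 without lean rat 1 (adjusted p = 0.043, in the setting with 1081 calls).

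The 6 terminal components measured, which form the membrane attack complex, included none that passed. C6 was the highest at 0.52 (adjusted p = 0.525), but was at 0.13 without obese rat 2 and 0.91 without obese rat 1. C9 was the lowest at -0.74 (unadjusted p = 0.018, adjusted p = 0.237) and ran from -0.98 without lean rat 1 (adjusted p = 0.041) to -0.50 without lean rat 2 (adjusted p = 0.260), but it did not exceed the near-background level on any array, so its size carries little information. None of 13 measured inhibitors passed either, and the obese pair was wholly below the lean pair for 5 of them, beside 21.3% of all genes. Of those 5, Cpn2 did not exceed the near-background level on any array. That level was itself highest on the array of lean rat 2 (5.24, against 4.49 to 4.68). Cd55, a membrane protein that speeds the decay of C3 convertases, was at 8.60 and 9.02 in the lean and 7.21 and 8.39 in the obese rats, a difference of -1.01 (adjusted p = 0.315; -0.42 without obese rat 1 and -1.60 without obese rat 2). Clu, the gene of clusterin, which blocks assembly of the membrane attack complex, was at 9.34 and 8.56 in the lean and 8.23 and 7.72 in the obese rats, a difference of -0.98 (adjusted p = 0.276; -1.37 to -0.59 with a rat left out). Csmd1, a membrane regulator gene, was the highest of the inhibitors at 0.47 (limma adjusted p = 0.452), and was at 0.16 without lean rat 1. It exceeded the near-background level on only 3 arrays, being below it in lean rat 1.

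**Figure D4:**
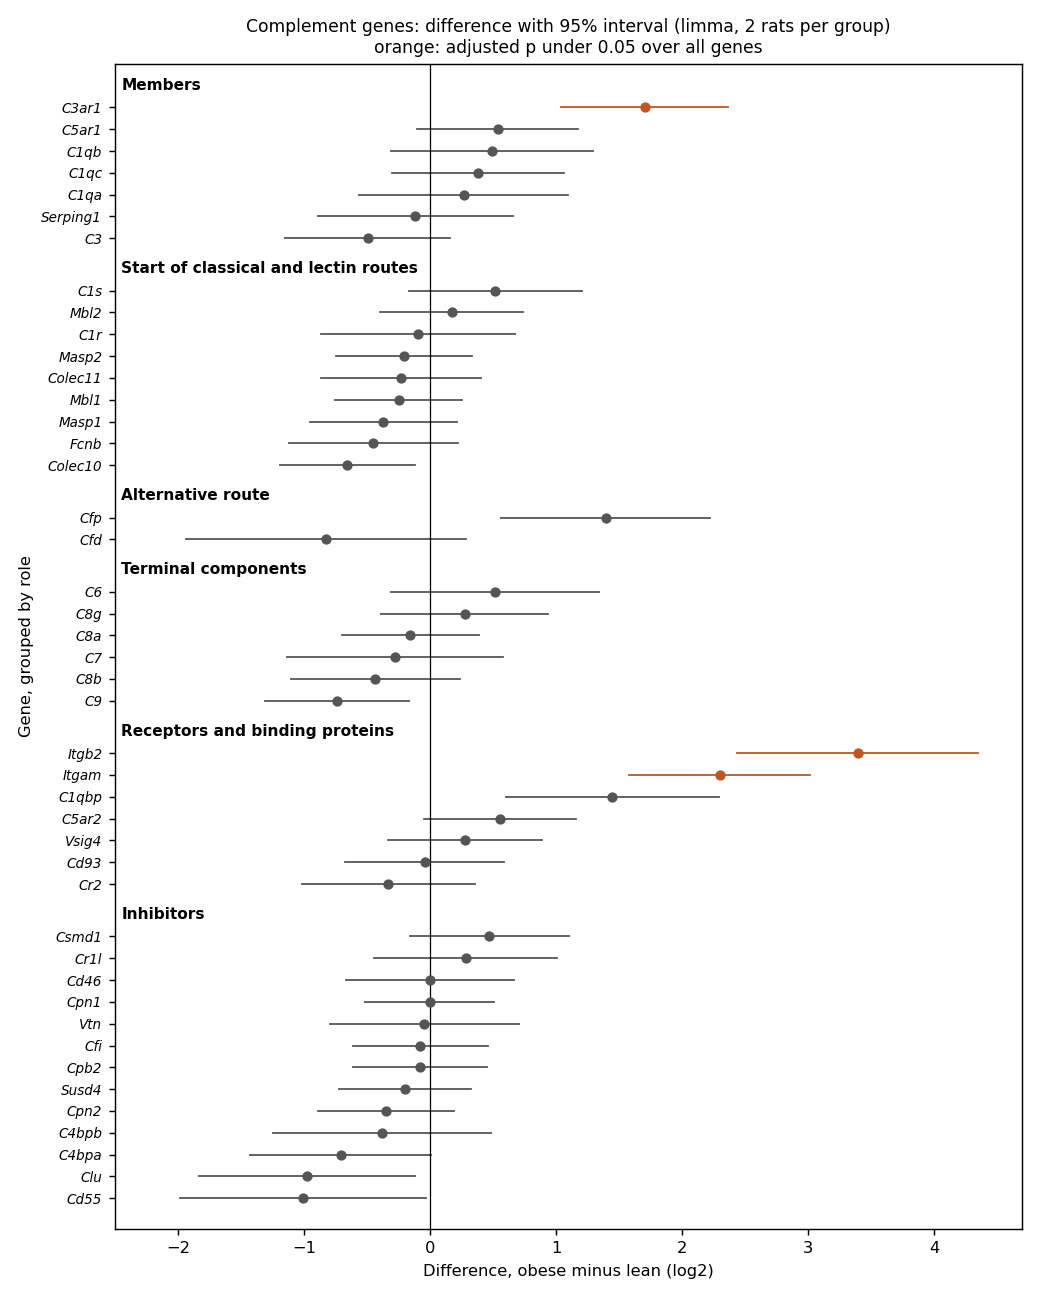
Difference between obese and lean rats (log2) for the 7 measured members and 37 other complement genes, grouped by role, with limma's 95% intervals; orange marks genes with an adjusted p under 0.05. C3ar1 (1.70), Itgam (2.30) and Itgb2 (3.39) are the orange points, and most others have intervals that cross 0.

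Macrophage markers are given beside these receptor genes. Of 11 measured macrophage markers, 3 rose (Lyz2 at 3.92, Mpeg1 at 2.71 and Ptprc at 1.90), none fell and 8 did not pass, among them Cd14 at 0.15 (adjusted p = 0.885). Ptprc is not specific to macrophages, being expressed by leukocytes in general. The obese pair was wholly higher for 10 of the 11 markers, beside 26.4% of all genes, and 0.772% of all genes passed by rising. The 11 markers had a median difference of 1.44. Their summed log2 signal was 11.78 to 11.95 in the lean and 13.19 to 13.71 in the obese rats. The part of macrophage content in the C3ar1, Itgam and Itgb2 values was not tested. Set beside that median, C3ar1 was at 1.70, whereas C1qa, C1qb and C1qc were at 0.27, 0.49 and 0.38.

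Of 8 markers of tissue-resident macrophages, the efferocytosis receptor gene Mertk rose (2.18, adjusted p = 0.028) and 7 did not pass, with a median of -0.08. The summed signal of the list was 11.27 to 11.56 in the lean and 11.95 to 12.27 in the obese rats. Folr2 was at 1.83 and Mrc1 at 1.61, while Cd163 was at -0.05 and Lyve1 at -0.41. The differences of the C1q chain genes lay between those of these marker genes, and their distance from either list was not tested.

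Other lists were given for the same purpose. The 8 neutrophil markers had a median of -0.04, with summed signals of 8.92 to 9.18 in the lean and 8.83 to 9.46 in the obese rats, and 2 of them exceeded the near-background level on all arrays. Mpo was by far the highest, at 8.43 and 8.66 in the lean and 8.28 and 9.10 in the obese rats. The neutrophil sums therefore mostly follow that gene. The 8 hepatocyte markers, included because liver makes most circulating complement, had a median of -0.20 and summed signals of 9.69 to 10.27 in the lean and 8.35 to 8.95 in the obese rats, and 3 of them exceeded the near-background level on all arrays. Alb, the albumin gene, was at 9.23 and 9.82 in the lean and 7.79 and 6.48 in the obese rats, a difference of -2.39 (adjusted p = 0.068). Adipocyte markers had a median of 0.26, fibroblast and progenitor markers 0.10, endothelial markers -0.49 and mesothelial markers -1.01, and no member of these 4 lists passed. The mesothelial sum was 9.31 in lean rat 1, 7.76 in lean rat 2 and 7.16 to 7.29 in the obese rats, and 3 of 5 mesothelial markers exceeded the near-background level on all arrays. In lean rats 1 and 2, Krt19 was at 8.53 and 4.62, Krt18 at 6.76 and 5.61, and Gpm6a at 6.19 and 5.58. Msln was at 5.31 and 5.24 and Wt1 at 5.42 and 5.83, so the high sum in lean rat 1 was not shared by all 5 markers. The part of the listed cell types in the values of C3 and Serping1, which several of these cell types can express, was not tested.

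**Figure D5:**
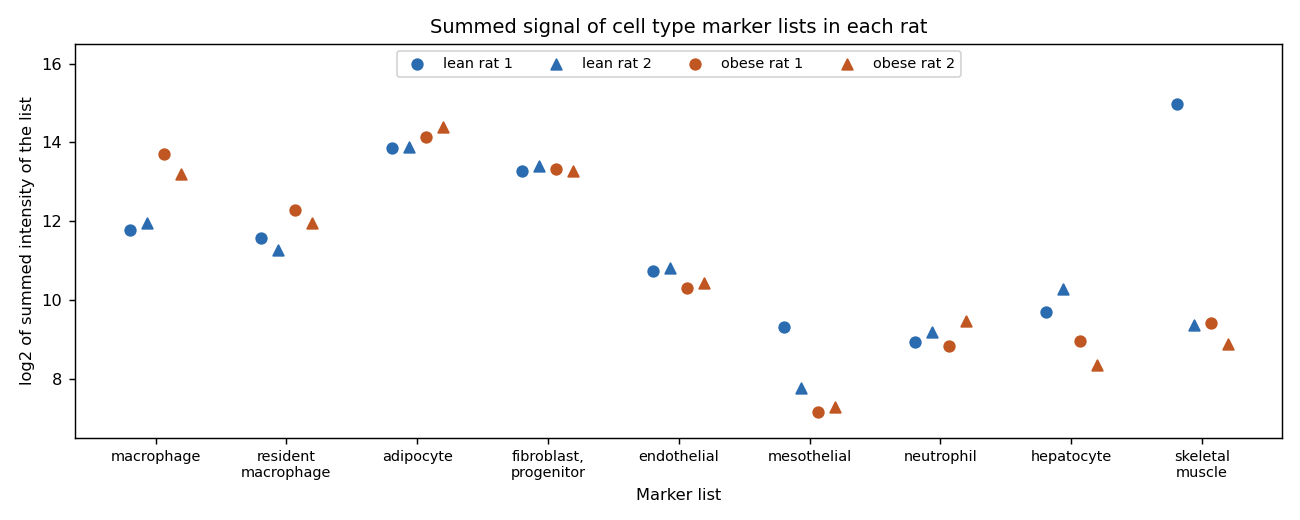
Log2 of the summed intensity of each cell type marker list in each rat, with blue for lean and orange for obese rats, circles for rat 1 and triangles for rat 2. The macrophage sum is 11.78 to 11.95 in the lean and 13.19 to 13.71 in the obese rats, and the skeletal muscle sum is 14.98 in lean rat 1 against 8.88 to 9.40 in the other rats.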

How the data were processed

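Total RNA from frozen fat was amplified, labelled and hybridised to Affymetrix arrays, per the labels' protocols. The authors deposited intensity values on a linear scale, and the submitters' processing notes name RMA, whose quantile step can mask a shift shared by most genes. The deposited arrays nevertheless did not share 1 distribution. The interquartile range of log2 values was 2.24 in lean rat 2, against 2.63 to 2.77 in the other rats. The software, version and build of RMA: not given in the sources used here.

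Values were log2-transformed without a pseudocount. Of 29214 rows, 15310 carried 1 gene symbol, 323 several and 13581 none in the platform table. Where a gene had several rows, that with the highest mean was kept, leaving 14506 genes. The groups were fitted with limma 3.58.1 under R 4.3.3 (lmFit, eBayes with a variance trend, no covariates), with Benjamini-Hochberg adjustment over all genes and a threshold of 0.05. The fit was tested on simulated data. Each sample is a separate rat.

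Members, lists and tests were chosen with earlier results of these data known. Named are all members and, of the other complement genes, those at an unadjusted p under 0.05 and the highest and lowest of each role. C1r, C5ar2, C4bpb, Cpn2, the motif cores, the receptor genes behind the near-background level and the markers given by name were chosen after values were seen. The alternatives were a rat-number block, other normalizations, 16 added before the log, other variance models, a filter on dim genes, other row choices and each rat left out. Same-numbered rats did not deviate together (correlation 0.020 over 14506 genes), so the numbers were not taken as pairs. Figures were drawn with matplotlib 3.10.9.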

Additional observations from a re-analysis of the deposited data

How the results depend on the processing

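The count of 122 genes called by limma became 69 with quantile normalization, 185 over all rows and 327 with the rat number as a replicate block, and 268 (without obese rat 1) to 1081 (without lean rat 1) with a rat left out. The rat number pairs nothing in the labels, and under the block C3ar1, Itgam and Itgb2 were still the called complement genes. For the members, limma called 1 in the reported fit and 0 with quantile normalization, median centring, 16 added before the log, without the lowest 25% of genes and over all rows, with 1 member at an unadjusted p under 0.05 each time, and 0 to 1 with a rat left out. Among the other complement genes, 2 were called, 0 with quantile normalization (10 at an unadjusted p under 0.05) and 2 to 5 with a rat left out. Fewer or more genes tested alter the adjustment, and otherwise the cause was not tested. Signs turned for C1qa with quantile normalization (-0.0091). With a rat left out they turned for C1qa (-0.092 to 0.62), Serping1 (-0.34 to 0.10, above 0 also without obese rat 2 at 0.093), Cr2 (-0.71 to 0.046) and C4bpb (-0.97 to 0.21). Over the 21 complement genes with settings compared, 249 results kept direction and side of the threshold, 9 lost a call, 5 gained one and 6 turned. A rat-number block, other variance models, a filter on dim genes and other row choices left these differences as reported. Signs could not turn there, so the count of 249 is partly fixed in advance. Colec10, C9, Cr2 and C4bpb have no value without the lowest 25% of genes. Rows near background, such as C9 and Cr2, limit what their differences show.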
